A study of Danio rerio with 15 samples.

Results

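The genes described here are the myeloid transcription factor genes *cebpa* (ENSDARG00000036074), *cebpb* (ENSDARG00000042725), *spi1b* (ENSDARG00000000767) and *irf8* (ENSDARG00000056407). They were chosen by identifier, as 4 of the 35117 genes in the count table, with their values in *csf1rDM* fish already known. Those *csf1rDM* values are therefore given as a description with no test, and tests are given for the *il34* mutants, for age, and for the difference of the *csf1r* effect between ages. The tests of age in *csf1rDM* fish and of the difference between ages use the same *csf1rDM* libraries, so their p-values are not independent of the choice of genes, and the controls of the other tests also entered the known comparisons. All 4 genes passed the filter on low counts and were among the 17640 genes tested, and the lowest count of any of them in any library was 205.

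The factors encoded by these genes are central to how blood progenitors become macrophages. PU.1, the ETS-family product of *spi1b*, opens myeloid enhancers in progenitors and stays on in macrophages, and in zebrafish it is needed for primitive myeloid cells. IRF8, which often binds DNA together with PU.1, directs zebrafish progenitors to the macrophage rather than the neutrophil fate. The leucine zipper factors C/EBPα and C/EBPβ bind a shared motif. In mice C/EBPα is required for granulocyte and monocyte progenitors, and C/EBPβ, which is also induced by inflammatory and stress signals, is needed by several tissue macrophage and monocyte populations.

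RNA was sequenced from *mpeg1*-GFP+ cells sorted out of 15 single juvenile zebrafish, 3 in each of 5 groups. The *mpeg1* reporter marks macrophages and also metaphocytes, ectoderm-derived cells that resemble them. The authors describe metaphocytes in the skin and, as likely, in the intestine. Controls were wildtype tg(mpeg-GFP) fish at 33 dpf (days post fertilization) and 1.5 mpf (months post fertilization). Fish of the line csf1raj4e1/j4e1;csf1rbre01/re01 tg(mpeg-GFP), called *csf1rDM*, lack both Csf1 receptor paralogs and were sampled at the same ages. Fish of the line il34re03/re03 tg(mpeg-GFP), called *il34-/-*, lack 1 ligand of that receptor and were sampled at 1.5 mpf only. All 15 fish thus carried the transgene, and the mutations were present in every cell rather than in macrophages alone. The sample titles give the older fish as 5 months, whereas their stage label gives 1.5 mpf, which is used here.

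Total counts per library ran from 5488201 to 106374902, with the highest total in *csf1rDM* fish 2 at 33 dpf. That library also stood apart in *csf1ra*, at 33.9 CPM (read counts scaled to a shared library total) against 0 and 0.077 in the other *csf1rDM* fish of that age and 163 to 183 CPM in their controls. The *il34* transcript did not check the labels, being at 6.02 to 19.2 CPM in *il34-/-* fish and 11.4 to 22 CPM in controls of their age. The pan-leukocyte gene *ptprc*, which encodes CD45, was present in every library, at 607 to 1020 CPM. The 3 MPEG1 identifiers together were at 2420 to 3990 CPM in controls and 6070 to 8600 CPM in *csf1rDM* fish at 33 dpf. At 1.5 mpf they were at 3490 to 4000 CPM in controls, 4230 to 8010 CPM in *csf1rDM* fish and 3520 to 5010 CPM in *il34-/-* fish. Some macrophage genes were absent from single libraries, with *marco* and *stab1* at 0 CPM in *csf1rDM* fish 1 at 33 dpf. CPM values were computed after scaling of library sizes by the trimmed mean of M-values (TMM). They are not divided by gene length, so levels are compared between fish and not between genes. The tissue was a pool of all sorted cells, in which fewer expressing cells and less RNA per cell cannot be told apart.

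The C/EBP genes varied strongly between the 5 groups, whereas *spi1b* and *irf8* stayed within a narrow range in all of them. From the lowest to the highest group mean, *cebpa* spanned 19.8 to 1463 CPM and *cebpb* spanned 75.7 to 3679 CPM. The corresponding range was 474 to 704 CPM for *spi1b* and 270 to 419 CPM for *irf8*, each mean being over 3 fish.

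**Figure D1:**
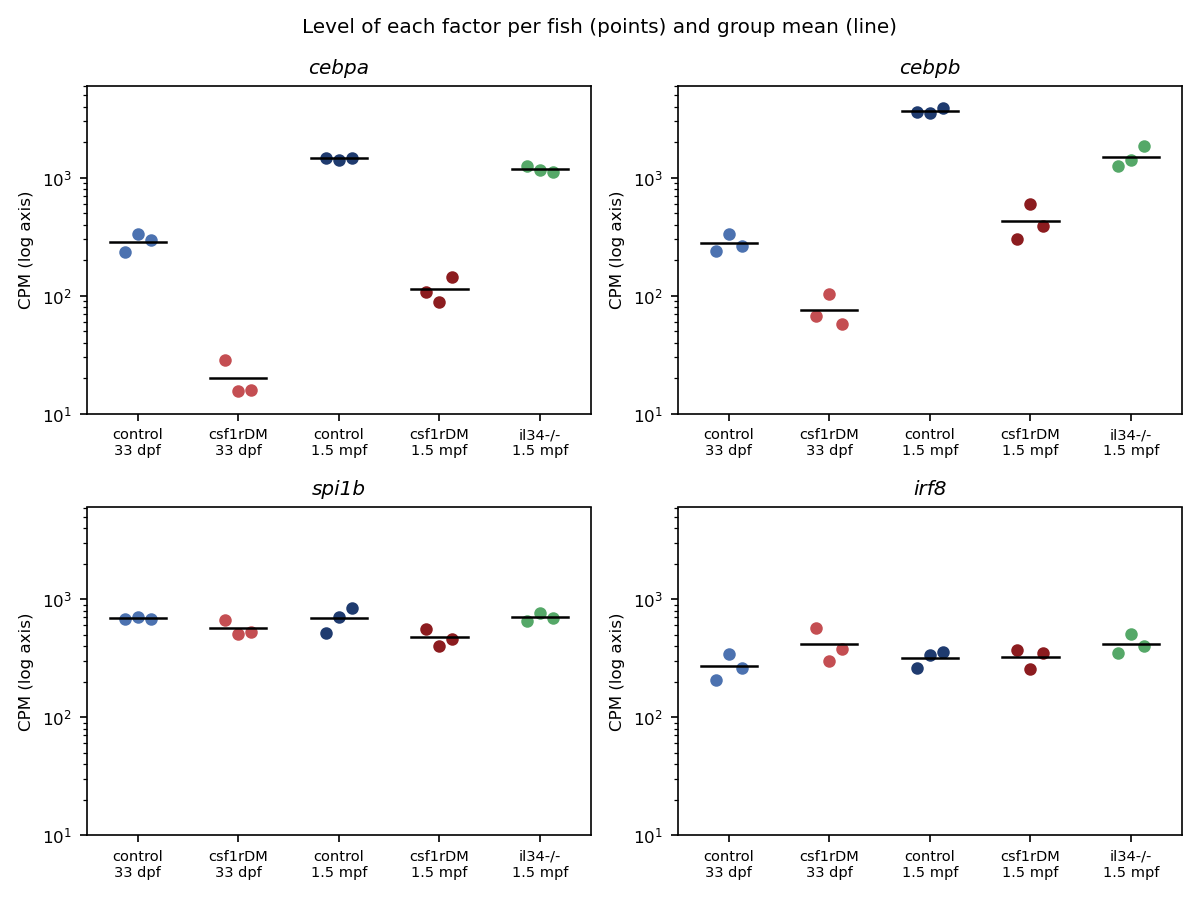
Level of *cebpa*, *cebpb*, *spi1b* and *irf8* in CPM (TMM-scaled, log axis) in each of the 15 fish, with points for fish and a line for the mean of the 3 fish of a group. For *cebpa* the 5 groups occupy separate ranges from 15.47 CPM to 1484 CPM, whereas for *spi1b* all fish lie between 401.3 and 848.4 CPM.

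For *cebpa*, the 3 control fish at 33 dpf had 234.9, 333.3 and 294.9 CPM. The *csf1rDM* fish of that age had 28.24, 15.47 and 15.79 CPM, and these were the lowest values of the series. At 1.5 mpf controls had 1484, 1420 and 1484 CPM, *csf1rDM* fish had 106.3, 88.98 and 143.9 CPM, and *il34-/-* fish had 1264, 1152 and 1109 CPM. Ordered by mean, the groups ran from controls at 1.5 mpf through *il34-/-* fish, controls at 33 dpf and *csf1rDM* fish at 1.5 mpf down to *csf1rDM* fish at 33 dpf, and no 2 neighbours in this order overlapped. The older *csf1rDM* fish thus had less *cebpa* than the younger controls.

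For *cebpb*, the control fish at 33 dpf had 237.3, 333.1 and 262.5 CPM. The *csf1rDM* fish of that age had 66.78, 103.1 and 57.3 CPM, all below the controls. At 1.5 mpf controls had 3583, 3539 and 3914 CPM, the highest values of the series for this gene. The *csf1rDM* fish at 1.5 mpf had 302.6, 594.6 and 387.7 CPM, and *il34-/-* fish had 1246, 1409 and 1851 CPM. The *il34-/-* fish lay between controls and *csf1rDM* fish with no overlap on either side, and the older *csf1rDM* fish overlapped the younger controls.

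For *spi1b*, the controls had 680, 712.3 and 685.7 CPM at 33 dpf and 515.9, 707.2 and 848.4 CPM at 1.5 mpf. The *csf1rDM* fish had 668.8, 509 and 524.7 CPM at 33 dpf and 562, 401.3 and 458.6 CPM at 1.5 mpf. The *il34-/-* fish had 657.8, 758.7 and 696.6 CPM. Every pair of neighbours in the order of group means overlapped, with *il34-/-* fish highest and older *csf1rDM* fish lowest.

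For *irf8*, the controls had 205, 344.4 and 260.1 CPM at 33 dpf and 258.7, 334.7 and 354.7 CPM at 1.5 mpf. The *csf1rDM* fish had 566.5, 302 and 381.5 CPM at 33 dpf and 373.3, 258.5 and 347.3 CPM at 1.5 mpf. The *il34-/-* fish had 352.8, 506.4 and 398.4 CPM. Neighbouring groups overlapped throughout for this gene too, and the highest single value came from a *csf1rDM* fish.

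The first question of the design is how sorted *mpeg1*+ cells differ in fish without the receptor. The authors propose that *csf1rDM* fish have a profound lack of mononuclear phagocytes and that many of their remaining *mpeg1*+ cells are metaphocytes. In adult skin they name *cebpb* among genes lower in the cells they identify as metaphocytes. For embryonic macrophages they report no major genotype difference in macrophage genes that include *cebpb*. The part of such a change of cells in the values below was not tested. In *csf1rDM* fish at 33 dpf, *cebpa* was 14.5-fold lower than in controls (log2 fold change -3.86, SE 0.26) and *cebpb* 3.66-fold lower (-1.87, SE 0.27). The ETS factor *spi1b* was 1.22-fold lower (-0.29, SE 0.18), and *irf8* was 1.54-fold higher (0.63, SE 0.26). The 2 groups of fish did not overlap for 3 of the 4 genes, *cebpa*, *cebpb* and *spi1b*, which is a description, since these values were known when the genes were chosen. Over all 17640 genes, 23.5% had groups that did not overlap at this age, and 3.05% passed the edgeR quasi-likelihood test at an adjusted p under 0.05. Without *csf1rDM* fish 2, the deepest library, the fitted difference of *cebpb* was -2.24 on the log2 scale.

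At 1.5 mpf the difference for *cebpa* was of similar size, at 12.9-fold lower in *csf1rDM* fish (log2 fold change -3.69, SE 0.26). That of *cebpb* was 8.59-fold lower (-3.10, SE 0.28), *spi1b* was 1.46-fold lower (-0.54, SE 0.18) and *irf8* was 1.03-fold higher (0.046, SE 0.26). Groups did not overlap for *cebpa* and *cebpb*, 2 of the 4 genes, against 22.1% of all genes, of which 1.63% passed the test. Against the *il34-/-* fish of the same age, the *csf1rDM* fish had 10.4-fold less *cebpa* (-3.38, SE 0.26), 3.51-fold less *cebpb* (-1.81, SE 0.27) and 1.49-fold less *spi1b* (-0.57, SE 0.18), with *irf8* 1.28-fold lower (-0.36, SE 0.26). In that comparison 3 of the 4 genes had groups that did not overlap, against 22.7% of all genes, of which 1.82% passed the test. The comparisons at 1.5 mpf share the same *csf1rDM* fish.

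**Figure D2:**
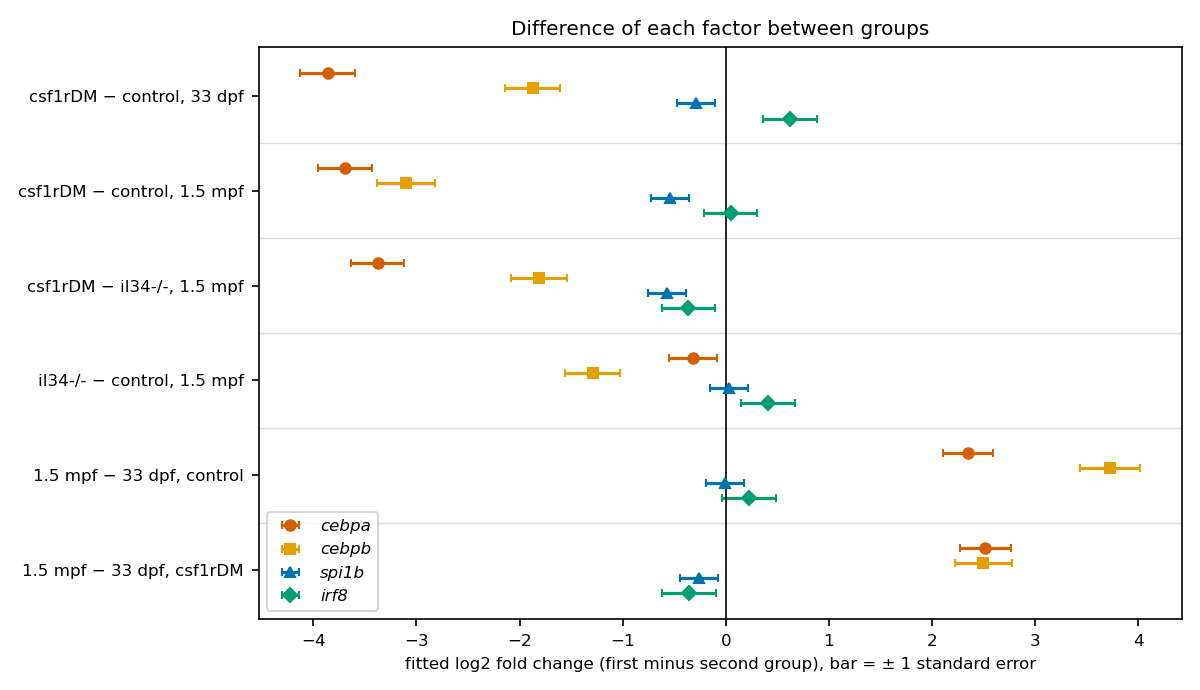
Fitted log2 fold change of each factor (horizontal axis, first group minus second group) with 1 standard error, for 6 comparisons from 1 edgeR fit to 15 libraries. The C/EBP genes lie far from 0 in most comparisons, up to -3.86 and 3.73, whereas *spi1b* and *irf8* lie between -0.57 and 0.63.

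Marker transcripts of other cell types differed with the *csf1rDM* genotype in the same libraries. Of the 3 matched metaphocyte markers, *cdh1*, which encodes E-cadherin, was at 350 to 507 CPM in *csf1rDM* fish and 26.4 to 49 CPM in controls at 33 dpf, and *epcam* at 288 to 626 CPM and 67.5 to 86.2 CPM. The third, *cd4-1*, went the other way, with 10.6 to 17 CPM in *csf1rDM* fish and 44.7 to 61.1 CPM in controls. The summed metaphocyte list was 651 to 1150 CPM in *csf1rDM* fish and 155 to 180 CPM in controls at 33 dpf, and 897 to 1160 CPM and 303 to 474 CPM at 1.5 mpf. It was 141 to 259 CPM in *il34-/-* fish.

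Several markers of resident macrophages were lower in *csf1rDM* fish. The scavenger receptor gene *stab1* had at most 0.0977 CPM in *csf1rDM* fish, against 63.2 to 235 CPM in controls. Of the 15 matched macrophage markers, 5 fell and 2, the antigen presentation genes *cd74a* and *cd74b*, rose in *csf1rDM* fish at 33 dpf, and 8 fell at 1.5 mpf, in the edgeR test. Over all genes 3.05% were called at 33 dpf and 1.63% at 1.5 mpf. The 15 include *csf1ra* and *csf1rb*, the genes mutated in these fish. Among the genes that fell were *csf1rb* at 33 dpf and *csf1ra* at 1.5 mpf. Because of the *cd74* genes the summed list was 20000 to 25100 CPM in *csf1rDM* fish at 33 dpf, above the 11400 to 14800 CPM of controls, whereas at 1.5 mpf the ranges overlapped, at 21900 to 26900 CPM and 22100 to 29400 CPM. It was 16900 to 21300 CPM in *il34-/-* fish. The pan-leukocyte gene *ptprc* differed less, with 607 to 736 CPM in *csf1rDM* fish and 710 to 811 CPM in controls at 33 dpf, and 780 to 786 CPM and 836 to 1020 CPM at 1.5 mpf.

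Of the 5 matched neutrophil markers none passed the edgeR test in any of the 7 comparisons, where 0 to 2 had an unadjusted p under 0.05 and DESeq2 called 0 or 1. Their sum was 64.9 to 193 CPM in *csf1rDM* fish and 297 to 406 CPM in controls at 33 dpf, and 169 to 311 CPM and 332 to 405 CPM at 1.5 mpf. Most of that sum came from *srgn*, which macrophages also express. By mean *npsn* went the other way with overlapping ranges, at 38.7 CPM in *csf1rDM* fish and 16.8 CPM in controls at 33 dpf. At 1.5 mpf its means were 60.3 and 33.4 CPM. The means of *mmp13a* were 0.131 and 4.63 CPM at 33 dpf, and 7.49 and 3.76 CPM at 1.5 mpf. The defining granule gene *lyz* was at most 2.76 CPM in all fish other than *csf1rDM* fish 3 at 1.5 mpf, where it was 20.0 CPM. The keratinocyte list (8 matched genes) summed to 1490 to 1870 CPM in *csf1rDM* fish and 510 to 926 CPM in controls at 33 dpf. At 1.5 mpf it summed to 1110 to 1410 CPM and 542 to 1080 CPM. Most of it came from *krt4* and *krt91*. EdgeR called 1 of the 8 genes higher at 33 dpf and 0 at 1.5 mpf (3.05% and 1.63% of all genes were called). With no overlap 4 were higher and 1, *cyt1l*, was lower at 33 dpf (23.5% of all genes in either direction). At 1.5 mpf 2 were higher and 0 lower (22.1% of all genes). By mean *krt91* was lower there, at 313 against 360 CPM. The part of these cell types in the C/EBP values was not tested.

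The second question is whether loss of the ligand Il34 alone changes the same genes. Of the 4 factors, only *cebpb* passed the test, with a mean of 1502 ± 313 CPM (SD, n = 3) in *il34-/-* fish and 3679 ± 205 CPM (SD, n = 3) in controls. It was 2.45-fold lower (log2 fold change -1.29, SE 0.26, adjusted p = 0.0451 by edgeR), and lower in 3 of 3 *il34-/-* fish than in every control. Over all genes 0.686% were called in this comparison, and *cebpb* ranked 107 by p among 17640. The call was close to the threshold and did not survive leaving out any 1 of the 6 fish, with an edgeR adjusted p of 0.0838 to 0.2, although the fitted log2 fold change stayed between -1.41 and -1.14.

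Macrophage markers differed in the same comparison without any call. Of the 15 tested, edgeR called none, 1 had an unadjusted p under 0.05 and DESeq2 called 0, but 8 were lower and 3 higher in *il34-/-* fish with no overlap, against 20.1% of all genes in either direction. The scavenger receptor gene *marco* had 181, 211 and 155 CPM in *il34-/-* fish and 482, 664 and 1050 CPM in controls (log2 fold change -2.01, SE 1.04, edgeR adjusted p = 0.497). The complement gene *c1qa* had 162, 260 and 201 CPM against 400, 422 and 512 CPM (-1.10, SE 0.58, edgeR adjusted p = 0.507). The 3 higher genes were *apoeb*, *lcp1* and *coro1a*. In *il34-/-* fish *apoeb* was at 823 to 920 CPM, against 267 to 585 CPM in controls. The ranges were 1540 to 1730 CPM against 1300 to 1480 CPM for *lcp1*, and 1990 to 2410 CPM against 1740 to 1950 CPM for *coro1a*. The median log2 fold change of the list was -1.01, beside -0.12 over all genes. The summed lymphocyte markers (8 genes) were 62.9 to 122 CPM in *il34-/-* fish and 160 to 430 CPM in controls. By mean the fall was largest for *rag1* (4.83 against 105 CPM) and *cd8a* (16.8 against 82.3 CPM). The T cell gene *lck* went the other way (62.1 against 32.8 CPM), with overlapping values. The erythroid markers (3 genes) summed to 23.5 to 90.1 CPM in *il34-/-* fish and 117 to 159 CPM in controls. The part of these cells in the *cebpb* difference was not tested.

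For *cebpa* the *il34-/-* fish were 1.25-fold lower (log2 fold change -0.32, SE 0.23, edgeR adjusted p = 0.699). Their 3 values lay just below those of the 3 controls without overlap, as did those of *cebpb*, so that 2 of 4 genes had separate groups against 20.1% of all genes. The values of *spi1b* differed by 0.029 on the log2 scale (SE 0.18, edgeR adjusted p = 1) and changed sign with RLE scaling. Those of *irf8* were 1.33-fold higher (0.41, SE 0.26, edgeR adjusted p = 0.609) with overlapping groups. The *csf1rDM* and *il34-/-* fish at 1.5 mpf were set against the same controls, from which *cebpa* differed by -3.69 and -0.32, and *cebpb* by -3.10 and -1.29, on the log2 scale.

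The third question is how the factors change with age. In control fish *cebpa* rose from 288 ± 49.6 CPM (SD, n = 3) at 33 dpf to 1463 ± 36.8 CPM (SD, n = 3) at 1.5 mpf, 5.09-fold (log2 fold change 2.35, SE 0.24, edgeR adjusted p = 0.000295). The rise of *cebpb* was 13.3-fold, from 278 ± 49.7 to 3679 ± 205 CPM (log2 fold change 3.73, SE 0.29, edgeR adjusted p = 1.97e-05). Both were higher in 3 of 3 older fish than in every younger one, and they ranked 15 and 5 by p among 17640 genes. Thus 2 of the 4 factors were called against 1.17% of all genes, and the same 2 had groups that did not overlap, against 18.9%. The values of *spi1b* (693 ± 17.2 and 691 ± 167 CPM, SD, n = 3) and *irf8* (270 ± 70.2 and 316 ± 50.7 CPM, SD, n = 3) overlapped between ages, with log2 fold changes of -0.004 (SE 0.18) and 0.23 (SE 0.26), both at an edgeR adjusted p of 1. With library sizes left unscaled that of *irf8* was -0.008, and that of *spi1b* turned positive with RLE scaling.

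The same 2 genes rose with age in *csf1rDM* fish, from a much lower start. There *cebpa* went from 19.8 ± 7.29 to 113 ± 28.1 CPM (SD, n = 3), 5.71-fold (log2 fold change 2.52, SE 0.25, edgeR adjusted p = 0.00112). In these fish *cebpb* went from 75.7 ± 24.2 to 428 ± 150 CPM (SD, n = 3), 5.65-fold (2.499, SE 0.27, edgeR adjusted p = 0.00205). They ranked 2 and 4 by p among 17640 genes, 0.215% of which were called in this comparison, and groups did not overlap for both, against 13.5% of all genes. When only the 6 *csf1rDM* libraries were fitted, no gene was called, and the adjusted p was 0.235 for *cebpa* and 0.182 for *cebpb* at the same fold changes in edgeR. The log2 fold changes of *spi1b* and *irf8* were -0.26 (SE 0.18, edgeR adjusted p = 0.722) and -0.35 (SE 0.26, edgeR adjusted p = 0.761), with overlapping groups.

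Whether the *csf1r* effect itself differed between ages was tested as an interaction, the difference between *csf1rDM* and control fish at 1.5 mpf less that at 33 dpf. None of the 4 factors passed by edgeR (0.238% of all genes did). Of the 4, 1 had an unadjusted p under 0.05 (1870 of all 17640 genes did), and DESeq2 called the same 1 (and 1002 of all genes). That gene was *cebpb*, whose difference was 1.23 further below 0 on the log2 scale in the older fish (log2 difference -1.23, SE 0.37, adjusted p = 0.255 by edgeR and 0.0263 by DESeq2). For *cebpa* the interaction was 0.17 (SE 0.33), for *spi1b* -0.26 (SE 0.26) and for *irf8* -0.58 (SE 0.37), with edgeR adjusted p of 1, 0.892 and 0.657.

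Transcripts of genes that respond quickly to stress and handling also differed between ages. A list of 29 such symbols, which matched 22 identifiers with *junb* and *jdp2* matching more than 1 each, was drawn up after their values had been seen and is therefore described without a test. It summed to 719 to 1070 CPM in controls and 949 to 1370 CPM in *csf1rDM* fish at 33 dpf, and to 2670 to 5810 CPM in controls, 1920 to 2860 CPM in *csf1rDM* fish and 1390 to 2060 CPM in *il34-/-* fish at 1.5 mpf. Of its 21 tested genes, 10 were higher with no overlap in older than in younger controls (9.74% of all genes were) and 6 in *csf1rDM* fish (7.14% of all genes were). Their median log2 fold changes were 1.92 and 0.79, beside 0.05 and 0.00 over all genes. In *il34-/-* fish against controls the median was -1.08, beside -0.12 over all genes, and 5 of the 21 were lower with no overlap (10.6% of all genes were).

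The phosphatase gene *dusp1*, an immediate target of stress and glucocorticoid signals, had 40.2, 57.9 and 53.2 CPM in controls at 33 dpf and 1530, 1500 and 936 CPM at 1.5 mpf. In *il34-/-* fish it had 281, 484 and 522 CPM, below the controls of that age. In *csf1rDM* fish it had 206, 313 and 210 CPM at 33 dpf, above their controls, and 491, 859 and 1080 CPM at 1.5 mpf. At 1.5 mpf the *dusp1* values of *csf1rDM* fish and controls overlapped. Control fish 1 at 1.5 mpf had 844 CPM of *egr1*, against 189 and 288 CPM in the other controls of that age. The part of this response in the rise of the C/EBP genes was not tested.

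Among other cell type lists, the lymphocyte markers (8 genes) summed to 29.4 to 144 CPM in younger controls and 160 to 430 CPM in older ones, and the erythroid markers (3 genes) to 23 to 74.4 CPM and 117 to 159 CPM. No gene of either list was called by edgeR with age in controls, where 1 gene of each had an unadjusted p under 0.05 and DESeq2 called 1 lymphocyte gene and 0 erythroid genes. Pigment cell markers stayed at 15.4 CPM or less in every fish, with *tyr* and *dct* at 0 in all controls of 33 dpf. Of the 15 macrophage markers tested, edgeR called 2 higher and 0 lower with age in controls (1.17% of all genes were called). With no overlap 8 were higher and 0 lower (9.74% of all genes were higher in this way). Of the 3 metaphocyte markers edgeR called 1 higher, and 1 was higher with no overlap. With age in *csf1rDM* fish edgeR called 0 macrophage and 0 metaphocyte markers, and 1 of each was higher with no overlap (7.14% of all genes were). The part of these cells in the age differences was not tested.

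Ratios of 2 factors within 1 fish do not depend on library scaling. The ratio of *cebpa* to *spi1b* counts was -1.28 ± 0.23 on the log2 scale (SD, n = 3) in younger controls and 1.11 ± 0.37 in older ones, and -4.89 ± 0.28 and -2.08 ± 0.37 in *csf1rDM* fish. The *il34-/-* fish had 0.74 ± 0.18, overlapping the controls of their age. The ratio rose with age by 2.39 in controls and by 2.80 in *csf1rDM* fish, with every older fish above every younger one (exact permutation test, two-sided, p = 0.1 and adjusted p = 0.129 for both, with 3 fish per group).

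The 2 C/EBP genes also shifted against each other. The log2 ratio of *cebpa* to *cebpb* was 0.051 ± 0.10 (SD, n = 3) in controls at 33 dpf, -1.33 ± 0.065 in controls at 1.5 mpf and -0.34 ± 0.38 in *il34-/-* fish. In *csf1rDM* fish it was -1.95 ± 0.75 at 33 dpf and -1.89 ± 0.74 at 1.5 mpf, below the younger controls at both ages. It fell by 1.38 with age in controls without overlap (exact permutation p = 0.1, adjusted p = 0.129), and differed by 0.052 (SE 0.61) between the ages of *csf1rDM* fish. In *il34-/-* fish it was higher than in controls by 0.99 without overlap (exact permutation p = 0.1, adjusted p = 0.129).

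The log2 ratio of *spi1b* to *irf8* was 1.39 ± 0.34 in controls and 0.48 ± 0.26 in *csf1rDM* fish at 33 dpf (SD, n = 3). At 1.5 mpf it was 1.11 ± 0.13 in controls, 0.76 ± 0.16 in *il34-/-* fish and 0.54 ± 0.12 in *csf1rDM* fish. The *csf1rDM* fish were below the controls without overlap at both ages, which is a description, and the *il34-/-* fish were below the controls by 0.35 without overlap (exact permutation p = 0.1, adjusted p = 0.129). Of the 18 ratio tests made, 14 had groups that did not overlap. These ratios share 4 genes, so they are not independent of each other or of the levels given above. Apart from *spi1b* to *irf8* in *il34-/-* fish, each of the 14 includes *cebpa* or *cebpb*. The share without overlap among ratios of other genes was not computed. In addition, 3 fish against 3 cannot give an exact permutation p below 0.1, and the smallest adjusted p was 0.129.

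**Figure D3:**
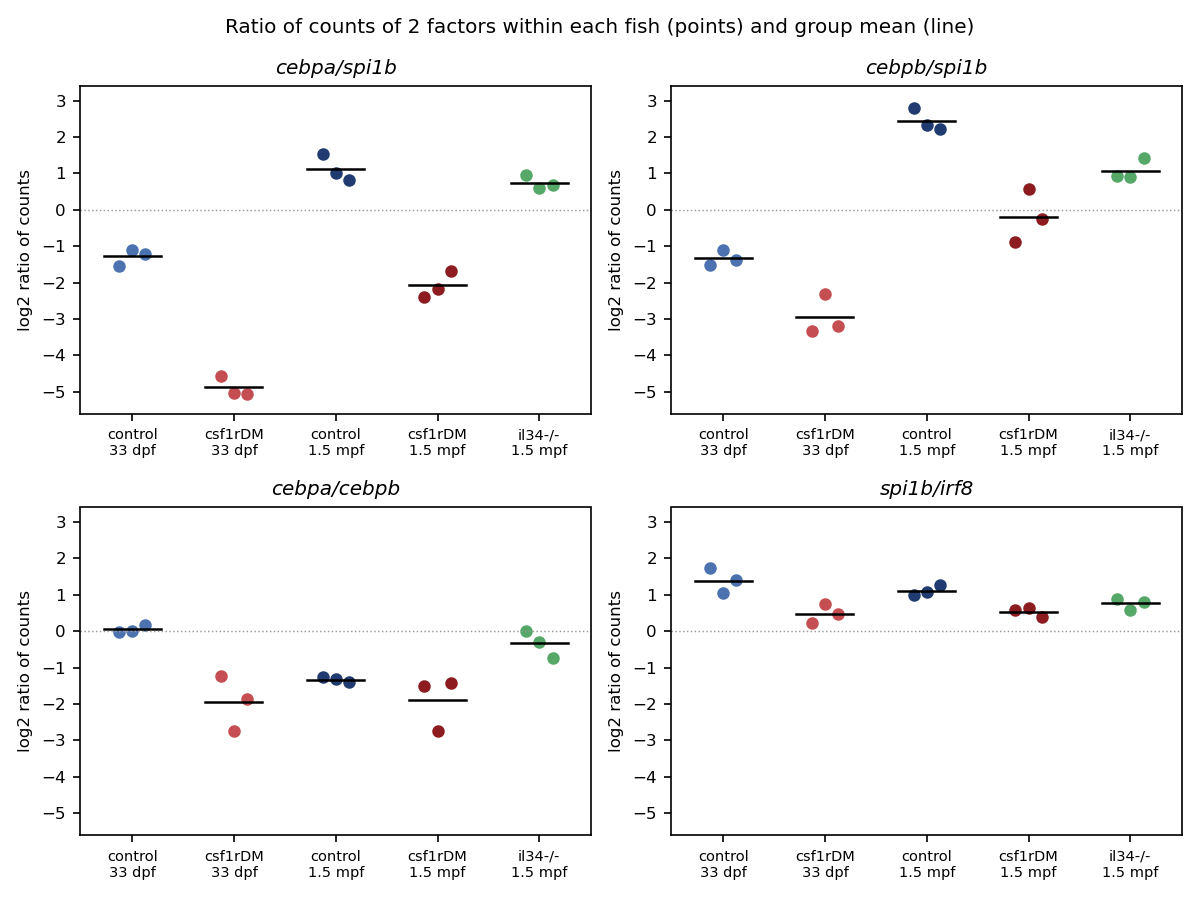
Log2 ratio of the counts of 2 factors in each fish (points) with the mean of the 3 fish of each group (line), for 4 of the 6 pairs. The ratio of *cebpa* to *spi1b* lies between -5.05 and -4.56 in *csf1rDM* fish at 33 dpf and between 0.81 and 1.53 in controls at 1.5 mpf, whereas that of *spi1b* to *irf8* stays between 0.24 and 1.73 in all fish.

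No relation between *spi1b* and *irf8* across fish passed after adjustment. In the 6 *csf1rDM* fish Pearson's r of their log2 CPM was 0.914 (exact permutation p = 0.022, adjusted p = 0.133 over the 12 relations computed) and Spearman's rho 0.886 (exact permutation p = 0.033, adjusted p = 0.2). Without the 2 fish farthest from the median of *spi1b*, r was 0.368. Few fish with a narrower range of *spi1b* were left, so this value cannot show what the relation rested on. In the 9 control and *il34-/-* fish r was 0.477 (permutation p = 0.187, adjusted p = 0.32) and rho 0.633 (permutation p = 0.077, adjusted p = 0.307), and r was 0.627 without the 2 farthest fish. For *cebpa* and *cebpb* the groups did not overlap by age within a genotype, nor by genotype at 1.5 mpf, so that the fish fell into clusters of 3, and no correlation of this pair is given.

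The genes whose pattern was most like each factor were found by the root mean square difference of log2 CPM, centred on each gene's mean, over the 15 libraries. This distance is not scaled to the spread of a gene, so a gene that varies little lies near other genes that vary little. The nearest gene to *cebpa* of all tested was *cebpb*, at 0.909. Next came ENSDARG00000107151 at 1.02, which had at most a mean of 3.72 CPM in any group, and the MYC-family gene *mych* at 1.14. The nearest genes to *cebpb* were CHST13, a chondroitin sulfotransferase gene, at 0.842, *cebpa* at 0.909 and the arrestin-domain gene ARRDC2 at 0.931.

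For CHST13 the group means were 53.8 CPM in controls and 27.4 CPM in *csf1rDM* fish at 33 dpf, and 308, 49.8 and 131 CPM in controls, *csf1rDM* and *il34-/-* fish at 1.5 mpf, the same order of genotypes as for *cebpb*. Nearest to *spi1b* were SLC25A5 at 0.168, *tubb4b* at 0.202 and BTF3 at 0.203, genes of mitochondrial nucleotide exchange, the cytoskeleton and nascent protein handling. Nearest to *irf8* were GCA at 0.203, *prdx5* at 0.215 and *actr3* at 0.216. Ordered by Pearson's r instead, the 3 genes named for *spi1b* ranked 23, 157 and 41, and those named for *irf8* ranked 1, 3 and 2. The distance between *spi1b* and *irf8* was 0.390, and *irf8* ranked 419 among the genes nearest to *spi1b*.

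Other transcription factors of the same families mostly did not pass the test. The lists of C/EBP, ETS, IRF and other myeloid and blood genes held 36 tested factors without the 4 above. In *il34-/-* fish edgeR called none of them (against 0.686% of all genes). There 4 had an unadjusted p under 0.05, as did 1989 of all 17640 genes, and DESeq2 called 2, and 1144 of all genes. With age in *csf1rDM* fish edgeR called none (against 0.215% of all genes). There 8 had an unadjusted p under 0.05, as did 1924 of all genes, and DESeq2 called 5, and 1040 of all genes. With age in controls 2 rose and none fell (1.17% of all genes were called). In that comparison 7 had an unadjusted edgeR p under 0.05, as did 1624 of all genes, and DESeq2 called 3, and 876 of all genes. In *csf1rDM* fish 1 rose and 1 fell at each age (3.05% of all genes were called at 33 dpf and 1.63% at 1.5 mpf). An unadjusted edgeR p under 0.05 was found for 10 of the 36 at 33 dpf and 11 at 1.5 mpf. Of all 17640 genes, 3029 and 2308 had such a p. DESeq2 called 8 and 7 of the 36, and 2142 and 1423 of all genes. Against *il34-/-* fish 1 was higher in *csf1rDM* fish (1.82% of all genes were called). An unadjusted edgeR p under 0.05 was found for 12 of the 36 and 2657 of all genes, and DESeq2 called 11 and 1845. The median log2 fold change of the 36 was -0.25 in *il34-/-* fish (-0.12 over all genes), 0.35 with age in controls (0.05 over all genes) and 0.45 with age in *csf1rDM* fish (0.00 over all genes). It was 0.12 in *csf1rDM* fish at 33 dpf and 0.35 at 1.5 mpf (0.00 over all genes at both ages), and 0.15 against *il34-/-* fish (0.05 over all genes). In the interaction edgeR called none (against 0.238% of all genes), and the median was 0.07 (-0.04 over all genes). There 7 had an unadjusted p under 0.05, as did 1870 of all 17640 genes, and DESeq2 called 3, and 1002 of all genes.

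**Figure D4:**
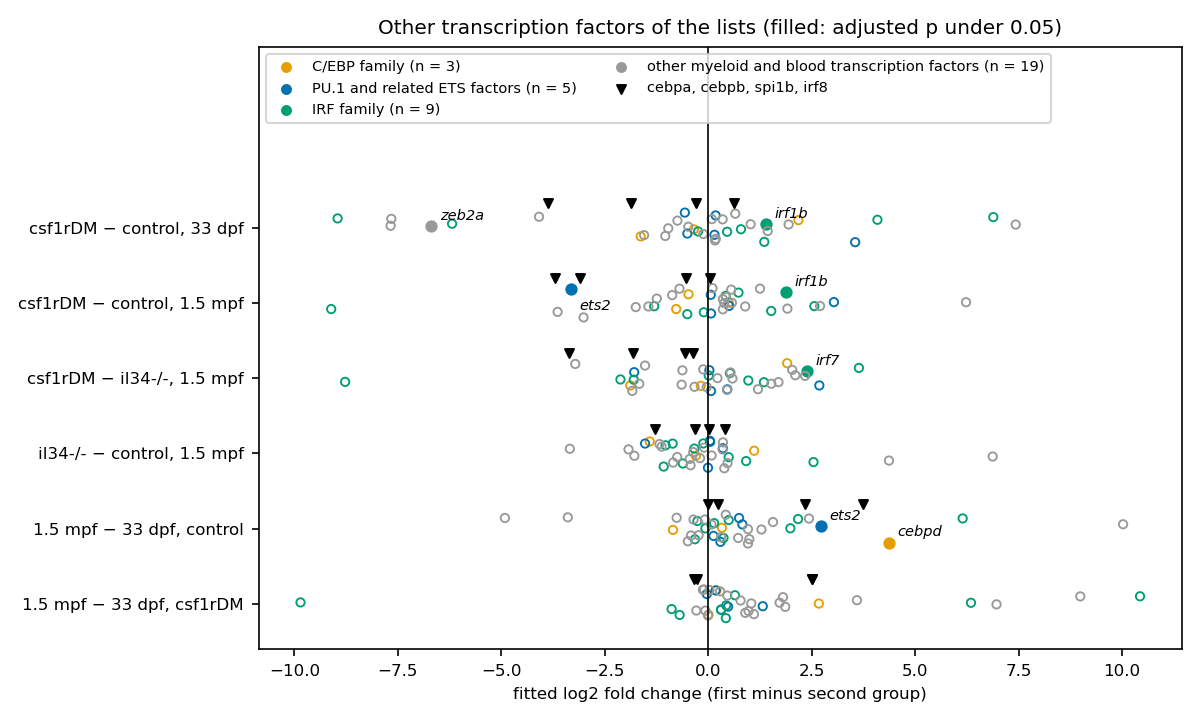
Fitted log2 fold change (horizontal axis) of 36 other transcription factors of the C/EBP, ETS, IRF and other myeloid lists in 6 comparisons, with filled points for an edgeR adjusted p under 0.05 and black triangles for *cebpa*, *cebpb*, *spi1b* and *irf8*. Most points are open, and the 7 filled ones belong to *cebpd*, *ets2*, *irf1b*, *irf7* and *zeb2a*.

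In the C/EBP family (3 other genes tested) *cebpd*, a further stress-inducible member, was the one called. It had 5.54, 2.48 and 6.47 CPM in younger and 125, 128 and 46.0 CPM in older controls (log2 fold change 4.36, SE 0.73, edgeR adjusted p = 0.00903). The call was lost without control fish 1 of 33 dpf and when only the 2 groups were fitted, with an edgeR adjusted p of 0.0554 or less over 16 settings. Unlike *cebpa* and *cebpb*, *cebpd* was above controls in *csf1rDM* fish at 33 dpf, with 39.6, 12.2 and 14.4 CPM. The groups did not overlap (11.1% of all genes were higher in this way), but it was not called (2.18, SE 0.67, edgeR adjusted p = 0.11). At 1.5 mpf it had 110, 172 and 139 CPM in *csf1rDM* fish, overlapping the controls. Its rise with age in *csf1rDM* fish had no overlap (7.14% of all genes rose in this way) and no call (2.67, SE 0.67, edgeR adjusted p = 0.181). In *il34-/-* fish it had 14.0, 27.7 and 70.7 CPM, overlapping the controls.

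The gene next to *cebpa* in the RefSeq annotation, *cebpg*, was at 31.0 to 128 CPM in all fish with no call, and the ribosome biogenesis factor *cebpz* was not called either. The neutrophil factor gene *cebp1* had 64 counts over all 15 libraries and did not pass the filter. In that annotation *cebpa* and *cebpb* each overlap a long non-coding RNA gene and *spi1b* overlaps a protein-coding gene, and since the use of strand in counting is not given in the sources used here, reads of such overlapping genes cannot be told apart.

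Among the ETS factors (5 others tested), *spi1a*, the paralog of *spi1b*, was at 1360 to 2180 CPM in all 15 fish and was not called in any comparison. The reads of these paralogs could be split between them by the counting. The ETS gene *ets2* rose with age in controls, from 135, 36.4 and 137 CPM to 676, 632 and 716 CPM (log2 fold change 2.71, SE 0.46, edgeR adjusted p = 0.0102), a call lost under 1 of 16 settings, the fit of only the 2 groups (edgeR adjusted p = 0.1). It was lower in *csf1rDM* fish at 1.5 mpf, with 92.1, 74.7 and 36.4 CPM (-3.32, SE 0.48, edgeR adjusted p = 0.00317, and called under all 16 settings). In *il34-/-* fish it was at 192, 198 and 313 CPM, between those groups without overlap, as *cebpb* was, but not called.

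Among the IRF genes (9 others tested), *irf1b*, an interferon-responsive activator, rose in *csf1rDM* fish, from 114, 92.3 and 54.5 CPM in controls to 187, 240 and 255 CPM at 33 dpf (log2 fold change 1.39, SE 0.33, edgeR adjusted p = 0.0399). At 1.5 mpf it had 102, 52.2 and 94.0 CPM in controls and 350, 359 and 207 CPM in *csf1rDM* fish (1.88, SE 0.34, edgeR adjusted p = 0.0125). The first call was kept under 7 of 16 settings and lost on leaving out any 1 of the 6 fish, and the second was kept under 13 of 16, lost without control fish 2 or *csf1rDM* fish 2. The antiviral factor gene *irf7* was higher in *csf1rDM* fish, with 152, 188 and 238 CPM, than in *il34-/-* fish, with 34.9, 53.0 and 22.8 CPM (2.38, SE 0.53, edgeR adjusted p = 0.0381). That call was kept under 10 of 16 settings and lost on leaving out any 1 fish.

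Of the 19 other myeloid and blood factors tested, *zeb2a* was called. The product of its mouse counterpart, ZEB2, maintains the identity of several tissue macrophages. It fell in *csf1rDM* fish at 33 dpf from 204, 294 and 313 CPM to 0.101, 0.512 and 7.39 CPM (log2 fold change -6.69, SE 1.44, edgeR adjusted p = 0.0231). The call was kept under 12 of 16 settings and lost without control fish 3, *csf1rDM* fish 1 or *csf1rDM* fish 2. At 1.5 mpf *zeb2a* had 205, 242 and 320 CPM in controls and 27.0, 7.61 and 60.5 CPM in *csf1rDM* fish, with separate groups but no call.

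Of the Csf1 receptor and ligand genes (5 tested), *csf1rb* was lower in *csf1rDM* fish at 33 dpf, with 44.9, 5.75 and 5.47 CPM against 228, 113 and 252 CPM in controls (log2 fold change -3.41, SE 0.77, edgeR adjusted p = 0.031). At 1.5 mpf *csf1rb* had 45.4, 32.7 and 35.5 CPM against 243, 405 and 213 CPM, with no overlap and no call (-2.93, SE 0.76, edgeR adjusted p = 0.0842). For *csf1ra* at 1.5 mpf the *csf1rDM* fish had 0, 0.0346 and 0 CPM and the controls 198, 115 and 206 CPM (edgeR adjusted p = 0.0177), whereas at 33 dpf *csf1ra* was not called (edgeR adjusted p = 0.198). The *il34-/-* fish had 43.7, 24.6 and 71.0 CPM of *csf1ra*, below the controls without overlap and not called.

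The gene csf3r encodes the receptor for granulocyte colony-stimulating factor. It was at 0, 33.8 and 9.4 CPM in *csf1rDM* fish and 82.8, 50.1 and 64.2 CPM in controls at 33 dpf, and at 8.38, 0.9 and 1.66 CPM and 59.0, 107 and 79.9 CPM at 1.5 mpf. The groups did not overlap at either age, as for 23.5% and 22.1% of all genes. Neither csf3r nor the other tested gene of its list was called by edgeR in any comparison, where at most 1 of the 2 had an unadjusted p under 0.05, and DESeq2 called 1 in *csf1rDM* fish at 1.5 mpf.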

How the data were processed

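The authors dissociated single fish with trypsin on ice, sorted *mpeg1*-GFP+ cells, amplified cDNA with SMART-seq V4 and sequenced paired reads. The deposited table holds raw counts per Ensembl gene, which the authors made by mapping to GRCz10 with STAR. The submitters' processing notes also name CASAVA 1.8, cutadapt, STAR 2.5.4b, Cufflinks 2.2.1, HTSeq 0.11.0 and edgeR without giving their roles, and the annotation release and the use of strand in counting are not given in the sources used here. Amplification before sequencing means that reads are not independent molecules.

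Counts as deposited were tested with edgeR 4.0.16 in R 4.3.3: genes were filtered by filterByExpr over the 5 groups (17640 of 35117 kept), scaled by TMM and fitted by robust quasi-likelihood, with all 15 libraries in 1 fit, 1 coefficient per group, and Benjamini-Hochberg adjustment over all genes tested at a threshold of 0.05. The fit is shared, so each comparison borrows the spread of the other groups. Standard errors of fitted log2 fold changes were the absolute fold change on that scale divided by the square root of the quasi-likelihood F statistic. Log2 CPM used a prior count of 2, and ratios a count of 0.5 added to each gene. Groups came from the sample labels, and each replicate is a separate fish. Symbols came from a table that named 27000 identifiers, and of 126 symbols in the lists 94 matched 1 identifier, 2 matched several and were left out, and the others were not analysed here. Named genes are the 4 factors, list genes that passed the test and the 3 genes nearest each factor, and further genes were named after their values were seen. The members and lists were chosen with earlier results of these data known, so their tests are not independent evidence. Neighbouring genes were read from RefSeq on GRCz12tu, and no coordinates or sequences are given. Alternatives were other scalings, filters, DESeq2 1.42.0, non-robust fits, a replicate block, only the groups compared, counts thinned to the smallest library, and leaving out each fish. The fitting step was tested on simulated data.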

Additional observations from a re-analysis of the deposited data

How the results depend on the processing

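Directions and calls of *cebpa* and *cebpb* with age in controls held under every alternative, with log2 fold changes of 2.11 to 2.47 and 3.49 to 3.88. With age in *csf1rDM* fish both calls, and all genes called, went from 2 and 38 to 0 when only those groups were fitted. In *il34-/-* fish the 1 call, *cebpb*, became 0 with library size only, a filter of 10 counts in 3 libraries or a non-robust fit (edgeR adjusted p = 0.0565, 0.0603 and 0.0524), and 0 to 0 calls remained on leaving out 1 fish. DESeq2 called 1 factor, *cebpb*, in the interaction. Differences near 0 changed sign. That of *spi1b* in *il34-/-* fish was -0.021 with RLE scaling and with DESeq2, -0.047 with thinned counts and -0.14 to 0.25 without 1 fish. That of *spi1b* with age in controls was 0.01 with RLE scaling and with DESeq2, 0.032 with thinned counts and -0.25 to 0.17 without 1 fish, and that of *irf8* was -0.008 with library size only. Library size only also moved the median of all genes, from 0.05 to -0.17 with age in controls, 0.00 to -0.18 in *csf1rDM* fish at 33 dpf, -0.12 to -0.008 in *il34-/-* fish and -0.04 to 0.17 in the interaction. The share of called genes that were higher went with it from 63.3% to 41.4%, 56.1% to 37.8%, 52.9% to 66.9% and 47.6% to 80.0%. The causes were not tested.

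Replicate numbers did not pair the fish: over 30 pairs with the same number r was -0.03 to 0.08, none over 0.1, and 7 of 15 libraries correlated best with their own number. With a replicate block the calls of the 4 factors were 1 in *il34-/-* fish, 2 with age in controls, 2 with age in *csf1rDM* fish and 0 in the interaction, as without it. All genes called went from 121 to 58 in *il34-/-* fish, 38 to 22 with age in *csf1rDM* fish, 42 to 2 in the interaction and 321 to 208 between *csf1rDM* and *il34-/-* fish.

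Counts over all genes depended on the tool. DESeq2 called 1144 in *il34-/-* fish, 876 with age in controls (edgeR 207), 1040 with age in *csf1rDM* fish, 1002 in the interaction, 2142 and 1423 in *csf1rDM* fish at 33 dpf and 1.5 mpf (edgeR 538 and 288) and 1845 between *csf1rDM* and *il34-/-* fish. In the same order, fits of only the groups compared called 61, 42, 0, 5, 148, 174 and 184. Upper-quartile scaling gave 24 in the interaction, and the 10-count filter 28. Leaving out 1 fish gave 16 to 107, 99 to 180, 33 to 61, 1 to 46, 242 to 476, 108 to 219 and 128 to 217.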

Other observations

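Some other factors had *csf1rDM* levels outside those of controls without passing the test, and are named here after their values were seen. The ETS gene *spi2*, a relative of *spi1b* known from zebrafish, was at 43.1 to 132 CPM in *csf1rDM* fish and 0 to 14.2 CPM in controls at 33 dpf (edgeR adjusted p = 0.127). At 1.5 mpf it was at 73.8 to 120 CPM in *csf1rDM* fish, 8.3 to 16.5 CPM in controls (edgeR adjusted p = 0.255) and 11.1 to 17.8 CPM in *il34-/-* fish (edgeR adjusted p = 0.277).

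The gene *mafb*, whose mouse counterpart encodes a factor of macrophage differentiation, went the other way. It was at 0 to 48.3 CPM in *csf1rDM* fish and 277 to 426 CPM in controls at 33 dpf (edgeR adjusted p = 0.0874). At 1.5 mpf it was at 6.49 to 30.7 CPM in *csf1rDM* fish, 239 to 337 CPM in controls (edgeR adjusted p = 0.171) and 153 to 248 CPM in *il34-/-* fish (edgeR adjusted p = 0.2).

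The gene *tfec*, which encodes a factor of the MITF family, was at 39.1 to 56.0 CPM in *csf1rDM* fish and 109 to 161 CPM in controls at 33 dpf (edgeR adjusted p = 0.0682). At 1.5 mpf it was at 18 to 54.1 CPM in *csf1rDM* fish, 83.8 to 162 CPM in controls (edgeR adjusted p = 0.127) and 81.9 to 140 CPM in *il34-/-* fish (edgeR adjusted p = 0.0906).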
